A study of Drosophila melanogaster with 6 samples.

Results

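The steroid and peptide hormones that time growth and moulting in Drosophila larvae are made largely in the ring gland, a small compound endocrine gland that sits on the brain, and the 10 genes described here make those hormones or call for them. They were chosen by symbol, with exact case, from a table of counts for 17493 genes, and all 10 were found: phm, dib, sad, nvd, spok, sro, shd, Akh, jhamt and Ptth. All 10 passed the filter on low counts and were among the 11369 genes tested. The count table holds 3 libraries of salivary glands (SG), a tissue in endoreplication cycles, and 3 libraries of brains plus imaginal discs (B-D), which hold mitotic cycling cells. Both tissues came from untreated feeding larvae early in their last instar, of the strain y1 w67c23. The larvae were kept at 25 °C and dissected 4 days after a 6 h egg lay. Both tissues carry the same alleles, y1 and w67c23, and no transgene or drug separates them, and the study describes the replicates as biological and takes both tissues from the same larvae. Neither the labels nor the study's methods name the ring gland among the dissected tissues.

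The larval ring gland joins 3 endocrine organs. Its prothoracic gland turns dietary sterol into ecdysone through the Halloween enzymes, its corpora allata make juvenile hormone, which holds the larva in its larval state, and its corpora cardiaca release adipokinetic hormone (AKH), which mobilizes stored fat and sugar. Brain neurons set the rate of ecdysone synthesis through prothoracicotropic hormone (PTTH), which acts on the receptor Torso of the prothoracic gland, and ecdysone is turned into its active form in other tissues.

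Total gene counts were between 45023997 and 55892356 in SG and between 45370626 and 56583711 in B-D. Levels are given as CPM, the counts of a gene for each 1000000 counts of the library after TMM scaling (trimmed mean of M-values), and on that scale 3 counts corresponded to between 0.0809 and 0.0968 CPM in SG and between 0.0364 and 0.0452 CPM in B-D. Every pair of replicates differed by more than counting noise, with a ratio of chi-square to its degrees of freedom of 38.0 to 539. Over 10 neuron markers the summed level was 276, 170 and 340 CPM in SG replicates 1 to 3, against 2515, 3066 and 2974 CPM in B-D replicates 1 to 3, and all 10 were called lower in SG. Over 10 fat body markers the sum was between 193027 and 287054 CPM in SG and between 1165 and 4884 CPM in B-D, with all 10 called higher in SG. Of 10 salivary gland markers 7 were called higher in SG, among them fkh and sage, and all 10 with the replicate number as a block. The glue gene Sgs3 differed widely among the glands themselves, at 422, 70753 and 325709 counts in SG replicates 1 to 3. It rose in the same order in B-D, at 20, 1959 and 2818 counts in B-D replicates 1 to 3. In bulk tissue, fewer cells of a type and less RNA per cell cannot be told apart.

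Transcripts of the ring gland were found in B-D, and 8 of the 10 hormone genes were lower in SG: 5 of the 6 prothoracic gland enzymes (phm, dib, sad, nvd and spok), Akh, jhamt and Ptth. The other 2, sro and shd, were higher in SG with TMM scaling, but sro was not when libraries were scaled by size alone. Calls are from the quasi-likelihood test of edgeR, with the adjusted p no higher than 0.05 and the log2 fold change, SG over B-D, no smaller than 0.5 in size. Of all genes tested, 35.3% were called lower, 34.5% higher and 69.8% in either direction, so calls were common in these tissues. For the 10 hormone genes the median log2 fold change was -3.83, against -0.035 for all genes tested. All SG libraries lay below all B-D libraries for the 8 lower genes, as for 41.3% of all genes, and above them for sro and shd, as for 39.9%. Without regard to direction 81.2% of all genes had no overlap. Under plain library-size scaling, the median of all genes moved by -1.10 on the log2 scale, and higher calls made up 18.3% of all calls (1588 higher and 7111 lower) in place of 49.5%. The 8 genes kept their direction and their call under that scale, as did shd, but sro turned to -0.29 and was not called.

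**Figure D1:**
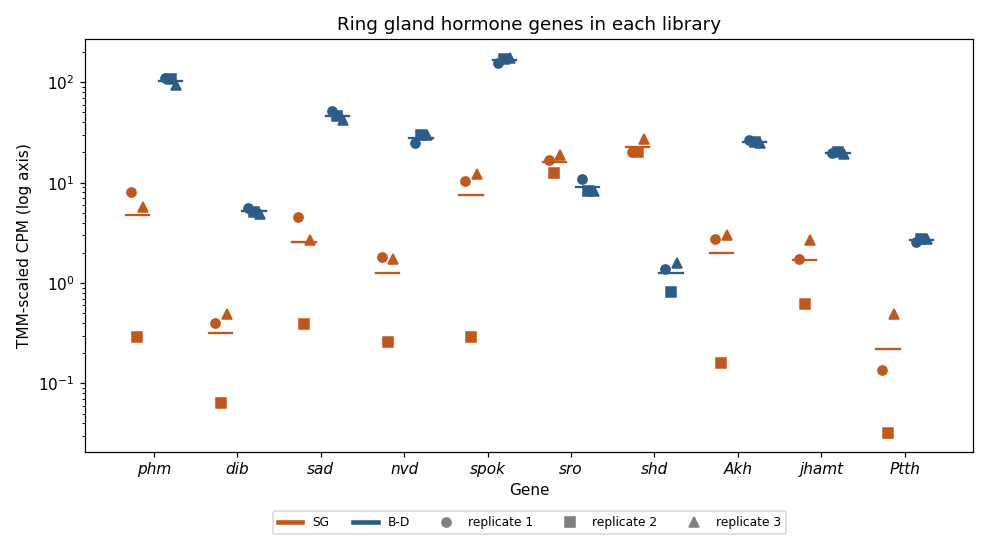
Level of each of the 10 hormone genes in each library, in TMM-scaled CPM on a log axis, with SG to the left of B-D for each gene, 1 point per library and a line at the mean. For 8 genes the SG points lie below the B-D points, with SG replicate 2 lowest, and for sro and shd they lie above (sro is not called under plain library-size scaling).

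Ecdysone synthesis starts with nvd, which encodes the oxygenase that dehydrogenates cholesterol. This gene, of the pericentric part of chromosome 3L (24324866 to 24401655 in Release 6), had 1.81, 0.258 and 1.74 CPM in SG replicates 1 to 3, against 24.8, 29.6 and 30.0 CPM in B-D replicates 1 to 3. SG stood far below B-D in every library, at 6.42%, 0.917% and 6.18% of the B-D mean. The log2 fold change was -4.46 ± 0.63 (SE, adjusted p = 0.00102).

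The next steps form the so-called black box, whose intermediates are unstable and in which the cytochrome P450 Spookier and the short-chain dehydrogenase Shroud take part. Spookier is encoded by spok, on 3R from 3322810 to 3354486. It had 10.5, 0.290 and 12.1 CPM in SG replicates 1 to 3, which are 388, 9 and 416 counts, against 154, 169 and 176 CPM in B-D replicates 1 to 3, where its count was the highest of the 10. The groups did not overlap, and the spread within SG was much wider than within B-D, with coefficients of variation of 84.0% and 6.67%. The log2 fold change was -4.45 ± 1.12 (SE, adjusted p = 0.0112). Its paralog spo, which serves the same step in the embryo, had at most 9 counts in any library and was not tested.

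The gene of Shroud, sro (3R, 29794597 to 29795805), had a pattern unlike that of the other enzymes of the prothoracic gland. It had 16.9, 12.4 and 18.7 CPM in SG replicates 1 to 3, against 10.9, 8.28 and 8.19 CPM in B-D replicates 1 to 3. Every gland library lay above every B-D library on this scale, and SG replicate 2, where each of the 5 other enzymes had at most 12 counts, still had 383 counts. The log2 fold change was 0.81 ± 0.21 (SE, adjusted p = 0.0118). That direction rests on the scaling: under plain library-size scaling it was -0.29 ± 0.21 (adjusted p = 0.233), and the unscaled share of counts in SG was 0.819 of that in B-D. When SG replicate 2 by itself was set against B-D it was 0.46 and not called (adjusted p = 0.107). Under both scales sro was at a level in SG that was of the order of that in B-D. With TMM, phm, dib, sad, nvd and spok were between 16.1-fold and 22.2-fold lower in SG by their means. The unscaled shares of counts of these 5 genes in SG were between 0.0210 (nvd) and 0.0290 (dib) of those in B-D. Of the exon bases of sro, 9.45% lie under exons of Rnb on the other strand, and Rnb averaged 10.9 ± 1.87 CPM in SG and 12.5 ± 0.376 CPM in B-D (SD, n = 3 each). Whether reads were counted by strand is not stated, so reads of that stretch cannot be assigned with certainty.

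Later steps add hydroxyl groups one at a time, each by its own cytochrome P450. The microsomal enzyme Phantom is encoded by phm, on X from 18685766 to 18688433. It had 8.09, 0.290 and 5.77 CPM in SG replicates 1 to 3, against 109, 108 and 94.7 CPM in B-D replicates 1 to 3. The log2 fold change was -4.46 ± 1.00 (SE, adjusted p = 0.00691). From the lowest log2 fold change of the 11369 genes tested, nvd ranked 401 and phm 402. Disembodied and Shadow, which follow Phantom, are mitochondrial enzymes. The gene sad (3R, 11877235 to 11879754) of Shadow had 4.53, 0.387 and 2.70 CPM in SG replicates 1 to 3, against 51.4, 46.6 and 41.7 CPM in B-D replicates 1 to 3 (log2 fold change -4.18 ± 0.76 SE, adjusted p = 0.00288). Disembodied is encoded by dib (3L, 4062292 to 4064551), the scarcest of these transcripts. It had 0.404, 0.0645 and 0.493 CPM in SG replicates 1 to 3, which are 15, 2 and 17 counts, against 5.60, 5.05 and 4.87 CPM in B-D replicates 1 to 3. For dib the log2 fold change was -3.98 ± 0.57 (SE, adjusted p = 0.00106). Exons of wit on the other strand cover 20.25% of its exon bases, and wit was itself lower in SG, at 8.72 ± 2.27 CPM against 43.5 ± 0.847 CPM in B-D (SD, n = 3 each).

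The last step of the pathway runs outside the prothoracic gland and had the opposite pattern. Shade, encoded by shd (3L, 14614458 to 14622205), turns circulating ecdysone into its active form in peripheral tissues such as the fat body. It had 20.2, 20.04 and 27.2 CPM in SG replicates 1 to 3, against 1.38, 0.813 and 1.58 CPM in B-D replicates 1 to 3. All 3 gland libraries, replicate 2 included, were well above all B-D libraries, by 17.9-fold for the means. The log2 fold change was 4.15 ± 0.30 (SE, adjusted p = 9.46e-05), and 3.06 ± 0.30 under plain library-size scaling (adjusted p = 1.93e-04). Fat body markers were also far higher in SG, and B-D replicate 2, lowest for shd, was lowest for their sum too, at 1165 CPM against 4884 and 2033 CPM in B-D replicates 1 and 3. Over the glands the fat body sum was highest in SG replicate 1 and lowest in SG replicate 3, where shd was highest. The median fat body marker had another order. It was at 7544%, 7110% and 7998% of the B-D mean in SG replicates 1 to 3, highest in SG replicate 3. The summed level of the 10 salivary gland markers was also lowest in B-D replicate 2, at 232 CPM against 278 and 571 CPM in B-D replicates 1 and 3. Over the glands that sum was highest in SG replicate 3, at 51679 CPM. Its Sgs glue genes were also highest there, Sgs3 being at 11.4, 2283.5 and 9449 CPM in SG replicates 1 to 3. The highest of the other markers, ng3, was lowest in SG replicate 3 (12840.5, 13170 and 11121 CPM in SG replicates 1 to 3). Of the rest, fkh, sage, ng1 and CrebA were highest in SG replicate 3 and ng2 in SG replicate 2. The part of fat body or salivary gland RNA in the level of shd was not tested.

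The hormones of the other parts of the ring gland followed the prothoracic gland enzymes. Akh, the gene of AKH and a marker of the corpora cardiaca (3L, 4141467 to 4142070), had 2.72, 0.161 and 3.05 CPM in SG replicates 1 to 3, against 26.5, 25.5 and 24.9 CPM in B-D replicates 1 to 3. Its log2 fold change was -3.68 ± 0.83 (SE, adjusted p = 0.00725). The gene jhamt (2L, 16365903 to 16367039) encodes the acid methyltransferase of a late step of juvenile hormone synthesis in the corpora allata. It had 1.75, 0.613 and 2.70 CPM in SG replicates 1 to 3, against 19.6, 20.1 and 19.4 CPM in B-D replicates 1 to 3, with a log2 fold change of -3.54 ± 0.50 (SE, adjusted p = 9.88e-04). Both genes were nearly level over the B-D libraries, where their coefficients of variation were 3.15% and 1.68%.

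Ptth is expressed in a few neurons of the brain and not in the ring gland itself. It lies on 2L from 575711 to 576896 and had 0.135, 0.0323 and 0.493 CPM in SG replicates 1 to 3, against 2.56, 2.73 and 2.77 CPM in B-D replicates 1 to 3. The gland values are 5, 1 and 17 counts, so SG replicate 2 was below 3 counts. The log2 fold change was -3.58 ± 0.70 (SE, adjusted p = 0.00392).

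How low these genes were in SG differed between the gland libraries, and SG replicate 2 was lowest for all 8. As a share of their means in B-D, phm stood at 7.78%, 0.279% and 5.55% in SG replicates 1 to 3, and spok at 6.28%, 0.174% and 7.25%. The 9 counts of phm in SG replicate 2 give an exact Poisson 95% interval of 0.128% to 0.530% of the B-D mean, and the 9 counts of spok one of 0.0798% to 0.331%, which cover counting error only. These intervals are far from the values of the other glands. Akh stood at 10.6%, 0.630% and 11.9% in SG replicates 1 to 3, and jhamt at 8.89%, 3.11% and 13.7%. The interval of jhamt in SG replicate 2, from 1.87% to 4.86%, lay above those of phm and spok in that library. Ptth stood at 5.02%, 1.20% and 18.4% in SG replicates 1 to 3, its single count in SG replicate 2 allowing 0.0304% to 6.70%. The medians of the markers of brain and disc cells were lowest in SG replicate 2 too, although single markers such as Syx1A and wg were lowest in another library. Relative to B-D, the median neuron marker was at 4.78%, 0.858% and 7.11% in SG replicates 1 to 3, and the median disc marker at 14.7%, 8.94% and 13.4%. None of the 10 neuron markers was at 0 in a gland library, the neuronal RNA-binding protein gene elav having between 331 and 1587 counts in SG and between 37846 and 48919 counts in B-D. The median markers of muscle (17.5% in SG replicate 2) and of hemocytes (8.31%) were also lowest in that library, and the median of the 6 trachea markers was between 16.6% and 19.2% in each gland library. The part of such RNA in the gland levels of the hormone genes was not tested.

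**Figure D2:**
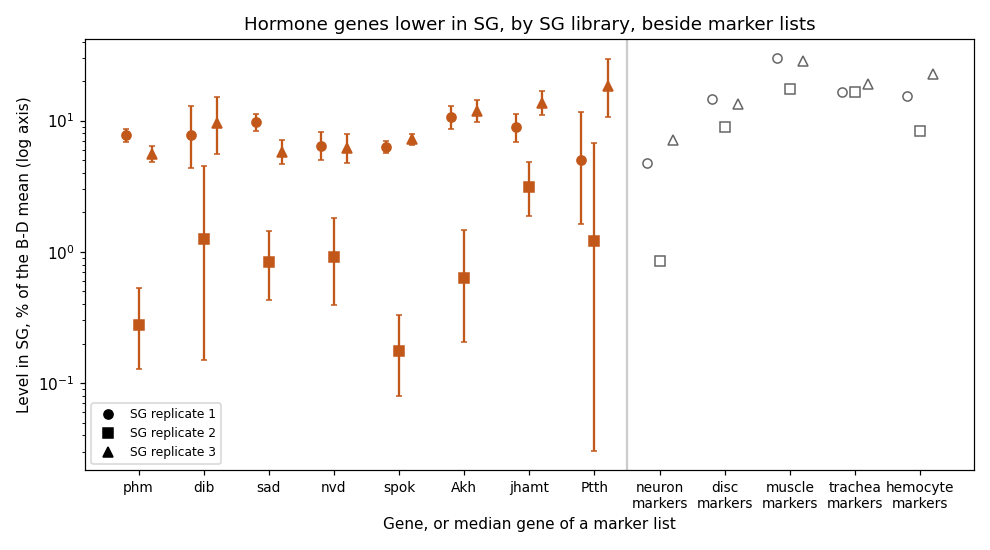
Level of the 8 hormone genes called lower, in each SG library, as a percent of the B-D mean on a log axis, with exact Poisson 95% intervals of the gland count (counting error only), beside the median gene of 5 marker lists with no interval. SG replicate 2 is lowest for all 8 genes, from 0.174% for spok to 3.11% for jhamt, and the median neuron marker is at 0.858% there.

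Leaving out single libraries changed sizes but no call among the 10. Without SG replicate 2 the log2 fold changes of the 8 lower genes were smaller in size, at -3.96 for nvd, -3.88 for phm, -3.86 for spok, -3.66 for sad, -3.50 for dib, -3.13 for Akh, -3.12 for jhamt and -3.08 for Ptth. Without SG replicate 3 that of Ptth was -4.89, and those of phm and spok were -8.45 and -9.13 when B-D was set against SG replicate 2 by itself. In the comparison with 1 gland library the lone gland library is assumed to vary like the B-D libraries. With the replicate number as a block all 10 kept their call, and spok moved most, to -5.06 (adjusted p = 0.0277). For shd, leaving out 1 library at a time gave between 3.96 and 4.38, and for sro between 0.70 and 0.99.

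**Figure D3:**
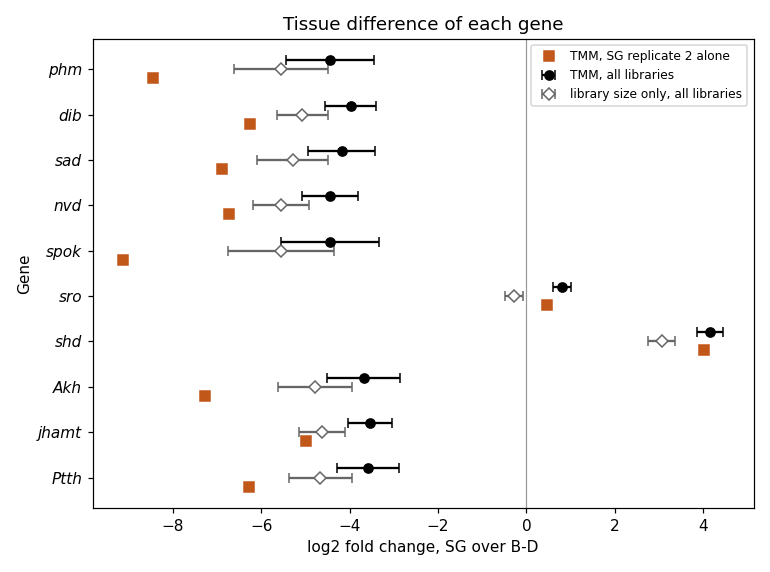
Log2 fold change, SG over B-D, of each gene with TMM scaling and all libraries (filled circles, bars ± SE), under plain library-size scaling (open diamonds, ± SE) and with SG replicate 2 alone (squares, no error drawn). The 5 enzyme genes from phm to spok lie between -4.46 and -3.98 with TMM, sro lies at 0.81 or -0.29 depending on the scale, and shd lies above 3 under both scales.

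Ratios between the enzymes show the same contrast within single libraries, where no scaling enters. In SG replicates 1 and 3 sad had 56.0% and 46.7% of the counts of phm, against 46.9%, 43.2% and 44.0% in B-D replicates 1 to 3. For nvd the ratios to phm were 22.3% and 30.2% in SG replicates 1 and 3, and 22.7%, 27.4% and 31.7% in B-D replicates 1 to 3. For spok they were 129% and 209% in SG replicates 1 and 3, and 141%, 157% and 186% in B-D replicates 1 to 3. The proportions of sad and nvd to phm thus lay close to those of B-D in these gland libraries. Other genes departed more. Akh had 33.7% and 52.8% of the counts of phm in SG replicates 1 and 3, against 23.7% to 26.2% in B-D. For jhamt these were 21.7% and 46.7%, against 17.9% to 20.5% in B-D. In SG replicate 3 dib and Ptth, each with 17 counts, had 8.54%, above their ratios in every B-D library. SG replicate 2 had 9 counts of phm, too few for such ratios. By contrast, sro had 209% and 324% of the counts of phm in SG replicates 1 and 3, against 10.002%, 7.69% and 8.64% in B-D replicates 1 to 3. For shd the contrast was wider still, with 250% and 471% in those glands against 1.26%, 0.755% and 1.67% in B-D. These ratios are given without a test.

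Per kilobase of exon, the order of the 10 transcripts differed between the tissues. In SG the order was led by sro (13.9 ± 2.84 CPM per kb, SD, n = 3) and shd (7.46 ± 1.35), followed by spok, Akh, phm, jhamt, sad, nvd, Ptth and dib (0.162 ± 0.115). From shd down, the ranges of neighbours in this order overlapped over the 3 gland libraries, so that sro alone was separated from the next gene. In B-D the order was led by spok (94.2 ± 6.29 CPM per kb, SD, n = 3), Akh (47.8 ± 1.51) and phm (47.2 ± 3.66), with Akh and phm overlapping. Below them came sad (26.2 ± 2.74), jhamt (18.4 ± 0.308), nvd (16.3 ± 1.67), sro (7.92 ± 1.36), dib (2.62 ± 0.194), Ptth (2.38 ± 0.0994) and shd (0.417 ± 0.132), with no overlap between neighbours. Within the prothoracic gland pathway, the level of spok in B-D was thus many times that of dib.

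**Figure D4:**
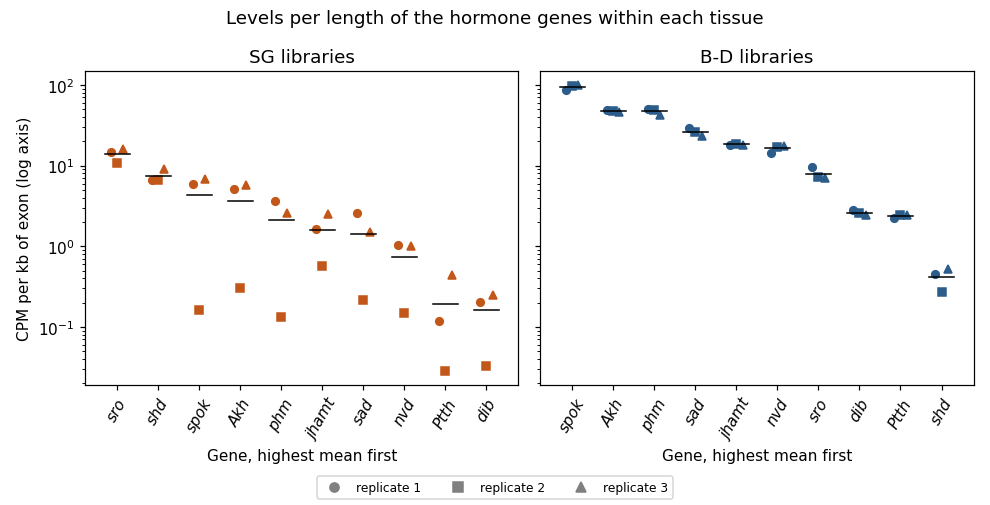
Level of each hormone gene per kilobase of exon, in CPM per kb on a log axis, in SG libraries (left) and B-D libraries (right), with genes ordered by their mean in each tissue, 1 point per library and a line at the mean. In SG sro leads at 13.9 CPM per kb, while in B-D spok leads at 94.2 CPM per kb and shd is last at 0.417.

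Genes that act before and after the 10 were followed in 8 lists of 66 genes, all of them matched, of which 63 were tested. Of these, 23 (36.5%) were lower in SG and 20 (31.7%) higher after TMM scaling, shares near those of all genes tested, 35.3% and 34.5%. Under plain library-size scaling 42 (66.7%) were lower and 8 (12.7%) higher, again near the shares of all genes, 62.5% and 14.0%. The counts of the single lists below are small and are to be read against these shares. Unless another scale is named, values below are with TMM.

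In the pathway of the PTTH receptor 4 of 6 genes were lower and the median log2 fold change was -0.75, and all 6 were lower under plain library-size scaling, beside 35.3% and 62.5% of all genes under the same scales. The receptor gene tor was lowest at 1.03 ± 0.170 CPM in SG and 4.76 ± 0.413 CPM in B-D (SD, n = 3 each), a log2 fold change of -2.20 ± 0.20 (SE, adjusted p = 1.96e-04). The receptor gene varied little over the glands, at 31, 35 and 39 counts in SG replicates 1 to 3. Signalling genes behind it had log2 fold changes smaller in size, at -1.16 for the adaptor gene Shc, -0.83 for Ras85D and -0.66 for the kinase gene Raf.

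Of 8 transcription factors that act in the prothoracic gland 5 were lower and 1 was higher, beside 35.3% and 34.5% of all genes, and the median was -1.55. The zinc finger genes ouib and mld, both needed for transcription of nvd or spok, were at -2.53 and -2.12, and the POU domain gene vvl was at -3.42. The higher gene was cnc, which encodes an Nrf2-like factor also used in stress responses, at 1.41 (0.32 and not called under plain library-size scaling). The receptor gene Hr4 and the ecdysone response gene br were at 0.16 and 0.19 with overlapping groups and were not called, but both were lower under plain library-size scaling (-0.93 and -0.90). Of 6 tested genes of other ecdysteroid enzymes and transport 2 were lower, namely the ecdysone importer gene Oatp74D (-1.23) and the ABC transporter gene Atet (-1.07), and none higher. The ecdysone-inactivating enzyme gene Cyp18a1 was at -0.24 and was not called (adjusted p = 0.56, edgeR), its groups overlapping, but it was called lower under plain library-size scaling (-1.34, adjusted p = 0.0137).

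Mitochondrial P450s such as Disembodied, Shadow and Shade draw electrons from ferredoxins, and in the list of sterol supply and electron donors 5 of 9 genes were higher in SG and 1 lower (median 0.66). The ferredoxin reductase gene dare rose the most, to 34.8 ± 3.998 CPM in SG against 8.99 ± 0.390 CPM in B-D (SD, n = 3 each; log2 fold change 1.95 ± 0.12 SE, adjusted p = 5.36e-05). It was followed by the ferredoxin gene Fdx2 (1.48), the sterol-regulated factor gene SREBP (1.35) and the nuclear receptor gene Hr96 (1.06). Under plain library-size scaling dare was still higher (0.85), but Fdx2 and SREBP were at 0.38 and 0.25 and not called, Hr96 was at -0.037, and 4 of the 9 genes were lower. The lower gene was the sterol transporter gene Npc2b (-2.24 ± 0.39 SE, adjusted p = 0.00232). The sterol transporter genes Npc1a and Npc2a and the carrier gene Start1 were at -0.30, -0.20 and -0.26 and not called, but were called lower under plain library-size scaling (-1.39, -1.30 and -1.36).

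Genes for the isoprenoid precursors of juvenile hormone, which every cell also uses for other ends, went both ways: of 7 tested 3 were higher and 1 lower (median 0.12). Fpps (1.01) and Hmgs (0.98) were higher, but under plain library-size scaling they were at -0.086 and -0.12. Idi was at 0.53 and turned to -0.58 under that scale, where it was called lower, and Mvd fell by 0.56. In the list of juvenile hormone turnover and response 4 of 7 genes were higher and none lower (median 0.77). Jheh3 and Jheh1, which encode epoxide hydrolases that break juvenile hormone down, were at 2.30 and 2.21, and at 1.20 and 1.11 under plain library-size scaling. Jheh2 of the same list went the other way, at -0.37 and not called. It was called lower with upper quartile scaling (-0.56) and under plain library-size scaling (-1.47). The receptor genes gce (0.81) and Met (0.77) turned to -0.29 and -0.32 under that scale. There 2 of the 7 genes were higher and 2 lower, with a median of -0.32. The call of Met was near the threshold (adjusted p = 0.0483, edgeR) and was lost with upper quartile scaling.

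While Akh itself was lower in SG, the gene of its receptor was higher. The receptor gene AkhR, known from the fat body, had 2675, 1569 and 2003 counts in SG replicates 1 to 3, against 102, 14 and 44 counts in B-D replicates 1 to 3. Its log2 fold change was 6.48 ± 0.65 (SE, adjusted p = 2.73e-04) and 5.38 under plain library-size scaling. As with shd and the sums of the fat body and salivary gland markers, B-D replicate 2 was lowest. Over the glands AkhR was at 72.1, 50.6 and 58.1 CPM in SG replicates 1 to 3. It was lowest in SG replicate 2, as were shd and the median fat body marker. The fat body sum was lowest in SG replicate 3 and the salivary gland sum in SG replicate 1. The part of fat body or salivary gland RNA in the level of AkhR was not tested. Of the enzymes that mature peptide hormones, the amidation genes Phm (not to be confused with phm) and Pal1 and the carboxypeptidase gene svr were higher (1.56, 2.13 and 1.61), although Phm was at 0.47 and not called under plain library-size scaling. The convertase gene amon and Pal2, both of neuroendocrine cells, were lower (-4.66 and -4.26). These 2 genes and, above, Hr4, br, Cyp18a1, Jheh2, ng1, CrebA and the sterol carriers were picked out after their values were seen. In all, 5 of 8 genes of this list were higher and 3 lower.

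Among signals that reach the PTTH neurons or the ring gland, 7 of 12 genes were lower, 2 were higher and the median was -2.24. Both higher genes encode peptide receptors. CrzR, the receptor of corazonin, had 338 ± 43.0 CPM in SG against 13.0 ± 0.952 CPM in B-D (SD, n = 3 each), a log2 fold change of 4.70 ± 0.14 (SE, adjusted p = 2.76e-05). Pdfr, the receptor of pigment dispersing factor, was at 3.55 ± 0.23 (SE, adjusted p = 6.55e-05). Under plain library-size scaling these were 3.60 and 2.45. The genes of allatostatin A and one of its receptors, AstA and AstA-R1, were at -4.22 and -3.51.

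**Figure D5:**
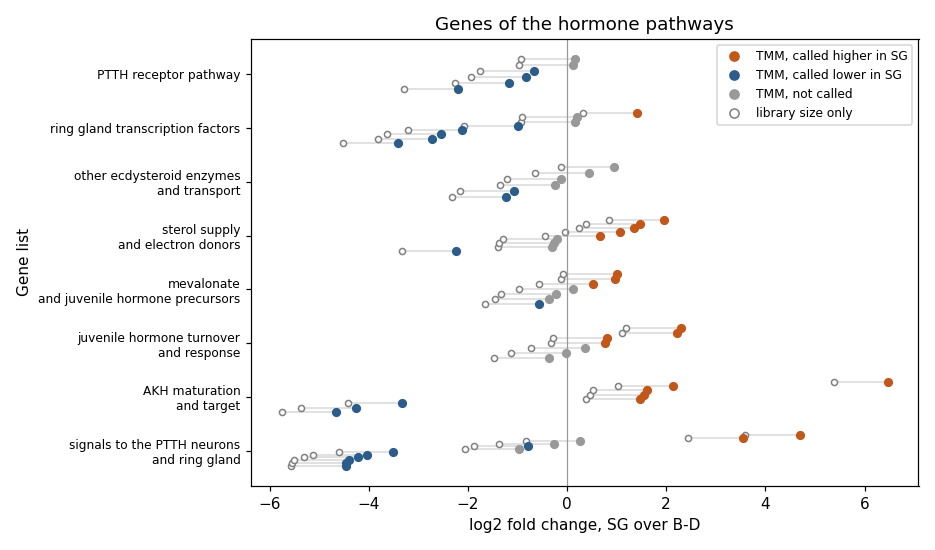
Log2 fold change, SG over B-D, of the 63 tested genes of 8 hormone pathway lists after TMM scaling (filled, coloured by call) and under plain library-size scaling (open), 1 pair of points per gene. With TMM 20 genes are higher and 23 lower, and under plain library-size scaling 8 are higher and 42 lower.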

How the data were processed

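Polyadenylated RNA of 3 SG and 3 B-D replicates was sequenced as single-end reads from strand-specific libraries. The authors checked reads with FastQC 0.11.5, mapped them with STAR 2.6.1a to the Release 6 genome and assigned them to exons with featureCounts, and they deposited raw counts per gene with the exon length, which are the values used here. Whether counting used strand, and how it treated multi-mapping reads, is not given in the sources used here. The authors' own comparison made with DESeq2 1.14.1 (fold changes and p-values) was not used.

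The deposited counts entered edgeR 4.0.16 under R 4.3.3 (filterByExpr, TMM, quasi-likelihood F test, tissue as the only term), with Benjamini-Hochberg adjustment over 11369 genes and the study's thresholds (adjusted p of 0.05 or less, log2 fold change of 0.5 or more in size). SE was derived from that fit, as the size of the log2 fold change divided by the square root of its F statistic. Alternatives were DESeq2 1.42.0, library size or upper quartile scaling, other count filters, a replicate block, each library left out in turn, and SG replicate 2 alone. Since the study takes both tissues from the same larvae, the replicate block paired libraries of the same number. No source says that the number marks the larvae, and the main test was unpaired. Deviations from the tissue means correlated at 0.33, 0.0769 and 0.222 for libraries of the same number, and at -0.358 to 0.229 for other number pairs. Every member is named, and of other lists the up to 4 called genes with the smallest p. The members and lists were chosen with earlier results of these data known. Positions and exon overlaps are from the Ensembl annotation of BDGP6 (Release 6), where nvd carries a renewed identifier and was matched by symbol. No sequences were used. Likeness of patterns was taken on log2 CPM (prior count 2) among genes with a mean of 1 CPM or more.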

Additional observations from a re-analysis of the deposited data

How the results depend on the processing

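The 8 hormone genes called lower in SG were called lower under all 13 alternatives, and shd was called higher under all 13. For sro 11 of 13 alternatives kept the call: under plain library-size scaling it was -0.29 and with SG replicate 2 alone 0.46, neither called, so that only 1 hormone gene was higher under each of these 2 settings, and the cause was not tested. Plain library-size scaling gave 7111 lower and 1588 higher calls among all genes, and 42 lower and 8 higher calls among the listed pathway genes. With each library left out in turn, 8 hormone genes were lower and 2 higher throughout, between 3709 and 4154 of all genes were lower and between 3805 and 4011 higher, and between 23 and 24 pathway genes were lower and between 18 and 21 higher. DESeq2 gave 8 lower and 2 higher hormone genes. With the replicate number as a block, 8 hormone genes were lower and 2 higher, sro being at 0.80 (adjusted p = 0.0177), and 3985 of all genes were lower and 3893 higher. The block changed no call among the hormone and pathway genes, and among the marker lists it added Sgs1, Sgs4 and Sgs5 to the higher calls. With 5, 1 and 17 counts of Ptth and 15, 2 and 17 of dib in SG replicates 1 to 3, the levels of these genes in single gland libraries are limited by depth.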

Other observations

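The transcripts whose pattern over the 6 libraries was most like that of the prothoracic gland enzymes were sought among 9571 genes with a mean of 1 CPM or more, by the root mean square difference of centred log2 CPM. With the mean profile of all 6 enzymes, the nearest were Trissin (0.163), E(spl)m7-HLH (0.169), gcm2 (0.181), CG6660 (0.214) and CG13579 (0.223). With a prior count of 0.5 in place of 2, 1 of these 5 genes, E(spl)m7-HLH, was still among the nearest 5. In SG replicate 2 gcm2 and CG6660 had 0 counts, Trissin and CG13579 had 1 each and E(spl)m7-HLH had 5, so these distances depend on the prior count. E(spl)m7-HLH encodes a transcription factor of the Notch response. The distances of the enzymes themselves to that mean profile were between 0.286 for dib and 1.07 for spok, and 2.53 for sro.

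With sro left out of the profile, a choice made after the data were seen, the nearest were tow (0.112), GABA-B-R3 (0.116), CG45781 (0.125), Con (0.128) and GstE14 (0.129). GstE14, also called noppera-bo, encodes a glutathione transferase known to be needed for ecdysone synthesis in the prothoracic gland. It had 47, 2 and 30 counts in SG replicates 1 to 3, against 1231, 928 and 1036 counts in B-D replicates 1 to 3. Con, by contrast, encodes a cell adhesion protein known from neurons and muscle. Of these 5 genes 2 were among the nearest 5 with a prior count of 0.5, and none was among the 5 found with sro in the profile. The 6 points of each profile fall into 2 tissues, and the likeness is given as a description, without a test.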
